A study of Mus musculus with 6 samples.

Results

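Neutrophils are short-lived white blood cells that carry antimicrobial proteins in cytoplasmic granules. They are made in the bone marrow, where granule genes are transcribed in sequence: those of the primary or azurophil granules in early precursors, those of the secondary or specific granules a step later. Mature neutrophils in blood and tissue have largely shut these genes off, while they still carry abundant transcripts of S100a8 and S100a9, the subunits of the calcium-binding protein calprotectin. The 10 genes described here were chosen by name: the azurophil genes Mpo, Elane, Prtn3 and Ctsg, the specific granule genes Camp, Ngp and Ltf, the ficolin gene Fcnb, and S100a8 and S100a9. Each matched 1 of the 30889 rows of the deposited gene table, and all 10 passed the filter on low counts, among 18071 genes tested.

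The RNA came from mouse liver after 14 days of oral treatment. The control group (3 libraries) was given phosphate buffered saline and the extract group (3 libraries) a water extract of Emilia sonchifolia, a herb of the daisy family. The sources used here do not give strain, sex, age or dose, and the labels name no gene edit or second agent. Libraries were made from 5 ug of total RNA on oligo(dT) beads. Nothing in the labels ties a library to its own animal. The p-values therefore measure the spread among libraries, which could be technical.

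The libraries held between 51219533 and 61432016 counts. Among the low counts a value of 4 was the commonest, with 6292 entries against 5334 at 1, so 1 read pair may add about 4 counts and a value of a few counts may rest on a single pair. The Pearson correlation of log2(FPKM + 0.1) across 10817 genes was 0.953 to 0.976 within control, 0.980 to 0.985 within extract and 0.941 to 0.953 between the groups. FPKM is a level scaled to gene length and to the number of fragments in the library. Of 10 hepatocyte markers, 9 were in the table and none of these was at 0. Their summed level was 38360 to 47231 FPKM in control and 39275 to 39642 FPKM in extract. edgeR's quasi-likelihood test called 26.9% of the genes tested at a Benjamini-Hochberg adjusted p below 0.05. It called 12.8% lower with the extract. Of the 9 hepatocyte markers it called 5 higher and 2 lower, and 0 lower without control 2, extract 1 or extract 2. Their sum, most of it Alb, does not show these changes. Of all calls 52.6% were higher, against 38.7% with limma on log2(FPKM + 0.5).

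The comparison asks how these genes differ between the livers of treated and control mice. Of the 10 genes, 9 fell with the extract and 1, Prtn3, was not called. In the same test 12.8% of all genes fell and 0.952% fell by at least 2 on the log2 scale, while the 9 that fell here all did so by more than 2. The 10 genes were chosen with earlier results of these data known. The shares over all genes therefore give a scale and do not test the list. The median log2 fold change was -4.33 over the 10 genes (-4.31 with Fcnb at its lower bound), beside -0.02 over all genes tested. The values of every extract library lay below those of every control library for all 10, as they did for 26.9% of genes tested. In bulk RNA, fewer cells of a type and less RNA per cell cannot be told apart.

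**Figure D1:**
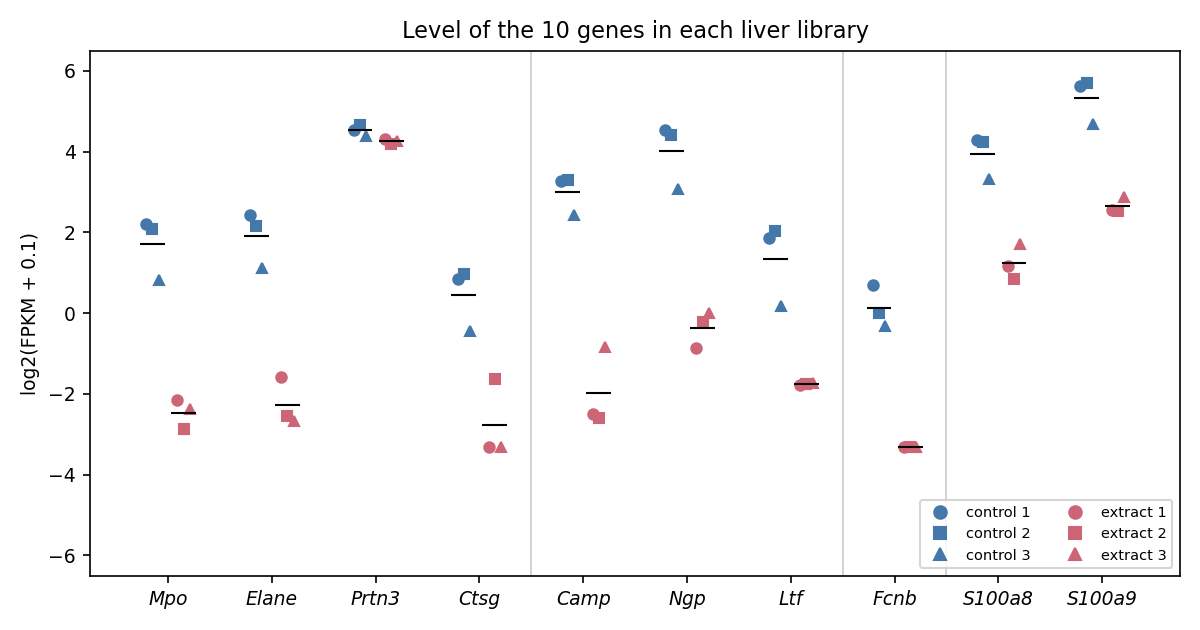
Level of each gene as log2(FPKM + 0.1) in the 6 liver libraries, with marker shape for the library, color for the group and a black line for the group mean. Grey lines part azurophil, specific granule, ficolin and calprotectin genes. Every extract value lies below every control value, by a small margin for Prtn3 alone, and control 3 is the lowest control library for all 10 genes.

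The azurophil granule is the oldest granule, loaded in the promyelocyte with a peroxidase and serine proteases. Mpo encodes myeloperoxidase, which makes hypochlorous acid from hydrogen peroxide and chloride. In control libraries 1, 2 and 3, in that order here and throughout, it was at 4.54, 4.17 and 1.66 FPKM. With the extract it was at 0.126, 0.0375 and 0.0925 FPKM. The lowest control value thus stood far above the highest extract value. The counts behind these levels were 953, 1053 and 364 in control and 29, 9 and 24 in extract. Mpo (ENSMUSG00000009350, chromosome 11, 87793581 to 87804413) was 36.2-fold lower, a log2 fold change of -5.18 ± 0.51 (± SE; adjusted p = 0.000275 by edgeR). An antisense gene, Gm11505, lies inside its span and was at 0.046 FPKM in control 1 and at 0 in the other 5 libraries.

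Elane, neutrophil elastase, showed the same picture. Its level was 5.27, 4.38 and 2.07 FPKM in control and 0.237, 0.0709 and 0.0576 FPKM in extract. No library of one group reached the range of the other. Elane (ENSMUSG00000020125, chromosome 10, 79886247 to 79888215) decreased by 4.91 ± 0.56 on the log2 scale (± SE; adjusted p = 0.000563 by edgeR).

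Ctsg, cathepsin G, is a serine protease with a much lower level here. It was at 1.68, 1.87 and 0.637 FPKM in control, and in extract it was listed at 0 in libraries 1 and 3 and at 0.223 FPKM in library 2, on 16 counts. Ctsg (ENSMUSG00000040314, chromosome 14, 56099881 to 56102574) decreased by 4.10 ± 1.09 on the log2 scale (± SE; adjusted p = 0.0260 by edgeR). That call rests on few reads. It was lost without control 1 (adjusted p = 0.0571), control 2 (0.111), extract 1 (0.0751) or extract 3 (0.0623), with DESeq2 (0.129) and with no filter on low counts (0.0564), and it held in the other 8 of 14 alternatives.

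Prtn3, proteinase 3, is a close relative of elastase and its genomic neighbor, 3.1 kb upstream on the same strand. It did not follow the other azurophil genes. Its level was 23.1, 25.1 and 21 FPKM in control and 19.8, 18.3 and 19.0 FPKM in extract. The groups lay next to each other without overlap, and in extract Prtn3 was the highest of the 10 genes. The fitted log2 fold change of Prtn3 was -0.21 ± 0.07 (± SE; adjusted p = 0.0528 by edgeR), below 0 under all 14 alternatives and called in 7 of them.

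The annotated structure of Prtn3 bears on what its row counts. GENCODE release M21 lists 6 transcripts for the gene (ENSMUSG00000057729, chromosome 10, 79874476 to 79883174). The coding transcript with 5 exons starts at 79879614. A noncoding transcript starts upstream at 79874476, and 3 of its 4 exons lie in the coding transcript's exons. The deposited value is for the gene as a whole, so the share of each transcript cannot be read from it. The first 159 bases of the span overlap Plppr3 on the other strand, which was at 0.642 to 1.19 FPKM in control and 0.656 to 0.951 FPKM in extract. The sources used here do not state whether reads were assigned by strand.

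The sequences before the start sites of the members are shown because these genes moved together with Prtn3 as the exception. All 10 matched a window of RefSeq (GRCm38.p6) that runs from 250 bases before to 50 bases after the start. Both strands were searched for GAGGAAG, a form of the site of PU.1, and TTNNGNAA, a form of the site of C/EBP proteins, which are both factors of myeloid cells. The stretches below end 66 bases before the RefSeq start, run 5′ to 3′ on the strand of the gene, and have matches in capitals. They are Elane at chr10:79886147-79886246 (+), Prtn3 at chr10:79879502-79879601 (+), Ngp at chr9:110419643-110419742 (+), Ltf at chr9:111019127-111019226 (+) and S100a9 at chr3:90695787-90695886 (-).
Elane: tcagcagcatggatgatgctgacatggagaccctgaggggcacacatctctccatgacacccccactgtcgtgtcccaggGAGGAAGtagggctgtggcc
Prtn3: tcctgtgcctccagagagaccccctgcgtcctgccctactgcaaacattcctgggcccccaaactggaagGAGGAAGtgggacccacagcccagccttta
Ngp: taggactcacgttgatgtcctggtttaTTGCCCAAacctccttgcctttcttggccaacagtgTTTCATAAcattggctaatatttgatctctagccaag
Ltf: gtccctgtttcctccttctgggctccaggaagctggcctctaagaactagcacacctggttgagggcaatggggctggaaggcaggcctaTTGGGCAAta
S100a9: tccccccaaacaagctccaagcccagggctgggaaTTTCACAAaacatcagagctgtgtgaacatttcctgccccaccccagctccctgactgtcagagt

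GAGGAAG occurred in 5 of the 10 windows, those of the 4 azurophil genes and S100a8, and in 13.6% of all 32851 windows. Elane and Prtn3, which differed in their change, both hold it, starting 85 and 95 bases before the start site. TTNNGNAA occurred in 5 windows, those of Ngp, Ltf, Fcnb, S100a8 and S100a9, and in 40.7% of all. The letters TGTGGT of RUNX sites occurred in 3 windows and in 16.8% of all, and TATAAA in 3 and in 13.6%. The Camp window held none of the 4. No matches overlapped in these windows, and a match is a description of the letters only.

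Specific granules are loaded in the myelocyte, a later precursor. Camp encodes cathelicidin, the precursor of an antimicrobial peptide. It was at 9.54, 9.69 and 5.28 FPKM in control and at 0.0758, 0.0650 and 0.464 FPKM in extract. Extract 3 was the highest of its group, on 24 counts against 4 in each of the others, and still far below every control. Camp (ENSMUSG00000038357, chromosome 9, 109847379 to 109849617) dropped by 5.19 ± 0.61 on the log2 scale (± SE; adjusted p = 0.000640 by edgeR).

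Ngp, neutrophilic granule protein, belongs to the same protein superfamily as cathelicidin and was the highest of the granule genes in control after Prtn3. Its level was 23.0, 21.2 and 8.34 FPKM in control and 0.451, 0.755 and 0.904 FPKM in extract. Control 3 was well under the other controls and still above all extract libraries. Ngp (ENSMUSG00000032484, chromosome 9, 110419747 to 110423012) dropped by 4.55 ± 0.43 on the log2 scale (± SE; adjusted p = 0.000225 by edgeR).

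Ltf, lactoferrin, binds iron in secretions and granules. It was at 3.52, 4.0 and 1.02 FPKM in control and at 0.191, 0.198 and 0.201 FPKM in extract. The extract libraries were almost equal, and the control libraries spread widely. Ltf (ENSMUSG00000032496, chromosome 9, 111019271 to 111042767) dropped by 3.72 ± 0.48 on the log2 scale (± SE; adjusted p = 0.000996 by edgeR). The 3 specific granule genes lie on chromosome 9 with gaps of 570.1 kb between Camp and Ngp and 596.3 kb between Ngp and Ltf.

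Fcnb encodes ficolin B, a lectin of immature myeloid cells that starts the lectin pathway of complement. It was at 1.53, 0.896 and 0.702 FPKM in control, on 125, 90 and 61 counts, and was listed at 0 in all 3 extract libraries. Set against a floor of 12 counts over the extract group, 3 read pairs at about 4 counts each, Fcnb (ENSMUSG00000026835, chromosome 2, 28076378 to 28084885) was at least 22.9-fold lower with the extract. The edgeR adjusted p was 0.000645.

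S100a8 and S100a9 make up much of the cytosolic protein of mature neutrophils, and monocytes express them too. As calprotectin they bind zinc and manganese away from microbes and, outside the cell, engage the receptors Tlr4 and Ager. S100a9 was at 49.7, 52.1 and 25.5 FPKM in control and at 5.81, 5.72 and 7.20 FPKM in extract. S100a8 was at 19.3, 18.9 and 9.88 FPKM in control and at 2.16, 1.71 and 3.19 FPKM in extract. For both genes the control libraries stood clear of the extract libraries, and the extract level remained well above 0, on 196 to 254 counts for S100a9. S100a9 (ENSMUSG00000056071, chromosome 3, 90692632 to 90695721) fell by 2.70 ± 0.26 and S100a8 (ENSMUSG00000056054, chromosome 3, 90668978 to 90670035) by 2.68 ± 0.32 on the log2 scale (± SE; adjusted p = 0.000260 and 0.000679 by edgeR). The genes lie 22.6 kb apart.

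In control the mean levels ran from S100a9 (42.4 ± 14.7 FPKM, SD, n = 3) through Prtn3 (23.0 ± 2.04), Ngp (17.5 ± 8.0), S100a8 (16 ± 5.31) and Camp (8.17 ± 2.50) down to Elane (3.91 ± 1.65), Mpo (3.46 ± 1.56), Ltf (2.85 ± 1.60), Ctsg (1.40 ± 0.664) and Fcnb (1.04 ± 0.431). Ngp overlapped in its values with both Prtn3 and S100a8, and Elane, Mpo and Ltf overlapped with each other. Within each control library, though, Prtn3 was above Ngp, Elane above Mpo, and Mpo above Ltf. Ngp was above S100a8 in controls 1 and 2 and below it in control 3. Differences between genes were not tested. The values of Prtn3 and S100a8 did not overlap. In extract the order was Prtn3 (19.0 ± 0.761 FPKM), S100a9 (6.24 ± 0.830), S100a8 (2.35 ± 0.760) and Ngp (0.703 ± 0.231), and the other 6 averaged between 0 and 0.201 FPKM.

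**Figure D2:**
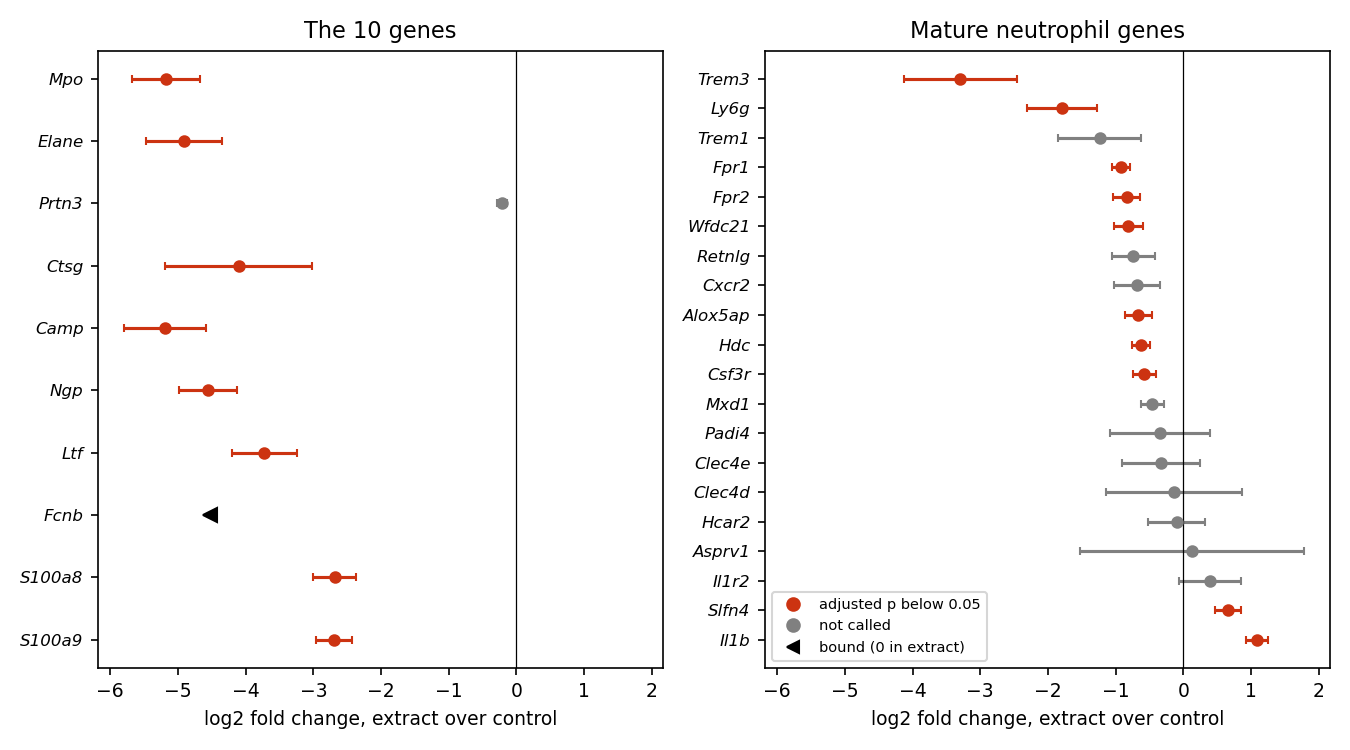
Log2 fold change of extract over control with its SE (edgeR, 3 libraries a group), for the 10 genes at the left and for 20 of the 21 tested genes of a list of mature neutrophil genes at the right. The triangle marks the bound for Fcnb, which was at 0 in extract. Granule genes other than Prtn3 lie between -3.72 and -5.19, S100a8 and S100a9 at -2.68 and -2.70, and the genes shown of the mature list between -1.23 and 1.09 except Ly6g and Trem3.

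The granule genes made in precursors were next set against S100a9 within each library. S100a8 was at 38.8%, 36.2% and 38.8% of the S100a9 level (FPKM) in control and at 37.2%, 29.8% and 44.3% in extract. The pair thus fell together, with a difference between groups in log2(FPKM + 0.1) relative to S100a9 of -0.02 (exact two-sided permutation test over the 6 libraries, p = 0.80, adjusted p = 0.80 over the 3 such tests). Camp was at 19.2%, 18.6% and 20.7% of S100a9 in control and at 1.3%, 1.14% and 6.44% in extract. Mpo was at 9.14%, 8.01% and 6.53% in control and at 2.17%, 0.655% and 1.28% in extract. For both genes each extract library was below each control library. Camp changed by -2.29 and Mpo by -1.49 relative to S100a9 on the log2 scale (exact permutation p = 0.10 for each, adjusted p = 0.15 over the 3 tests). With 3 libraries a group 0.10 is the smallest p that this test can give.

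Ngp was at 46.3%, 40.6% and 32.7% of S100a9 in control and at 7.76%, 13.2% and 12.6% in extract. Elane was at 10.6%, 8.42% and 8.12% in control and at 4.07%, 1.24% and 0.799% in extract. Both were lower relative to S100a9 in every extract library than in every control library. Ltf was at 7.08%, 7.68% and 4.02% in control and at 3.29%, 3.46% and 2.80% in extract, a smaller gap. Ctsg overlapped between the groups, at 2.50% to 3.59% in control and at 0%, 3.90% and 0% in extract. Prtn3 moved the other way, from 46.4%, 48.2% and 82.4% of S100a9 in control to 341%, 320% and 264% in extract. These differences depend on the pseudocount added before the log. With 0.5 FPKM in place of 0.1, the value for Mpo was -0.058, and those for Ctsg, Ltf and Fcnb turned from -0.53, -0.42 and -0.77 to 0.93, 0.49 and 1.02.

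**Figure D3:**
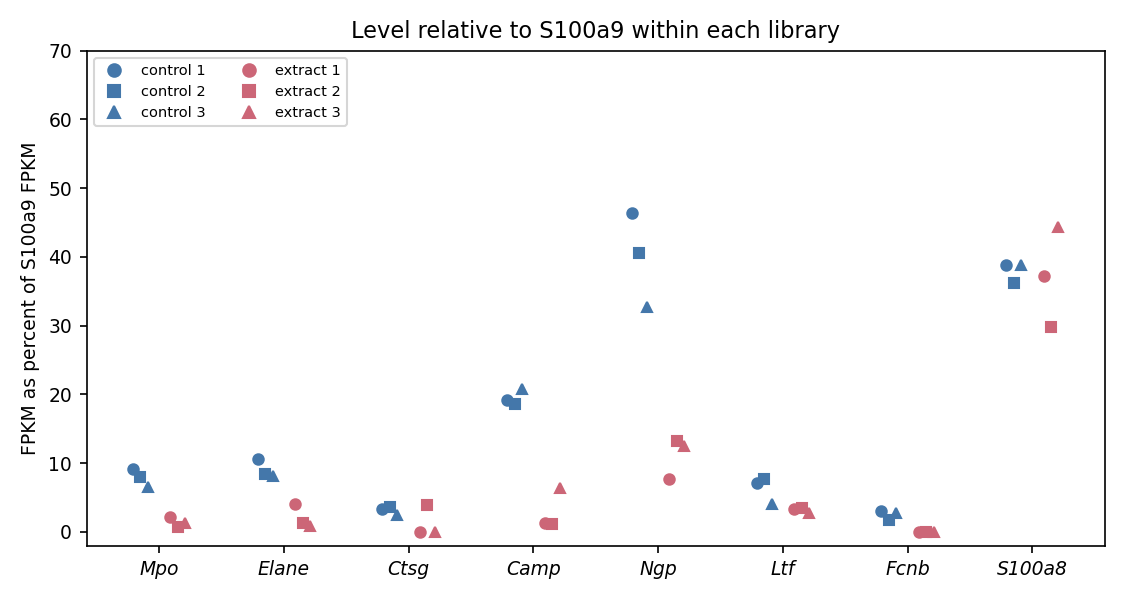
Level of each gene as a percent of the S100a9 level (both FPKM) in the same library, for 8 genes, with marker shape for the library and color for the group. Camp, Ngp, Mpo and Elane lie lower in each of the 3 extract libraries than in every control, S100a8 spans 29.8% to 44.3% with the groups mixed, and Prtn3 is left off, at 46.4% to 82.4% in control and 264% to 341% in extract.

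The control libraries did not share 1 level. Control 3 was at 0.273 to 0.580 times the mean of controls 1 and 2 for the 9 genes that fell with the extract, lowest for Ltf and highest for Fcnb, and at 0.872 times for Prtn3. Over 13231 genes with a control mean of at least 0.5 FPKM the median of this ratio was 0.991, and 3.45% of them were at or below 0.580. Without control 3, edgeR called all 10 genes lower, Prtn3 at an adjusted p of 0.0189. Leaving out any other single library gave 8 or 9 calls. A separate list of mature neutrophil genes had a median ratio of 1.05 over 13 tested genes, with a range of 0.0179 (Asprv1) to 1.74 (Wfdc21). S100a8 and S100a9, which mature neutrophils also carry and which are not on that list, were at 0.518 and 0.501. Platelet genes were at a median of 0.653 over 4 genes.

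Genes of other granule proteins and of their processing were mostly lower too. Of 17 such genes 16 were tested, 13 fell and 0 rose, with a median log2 fold change of -0.76. Prss57, a serine protease of neutrophil granules in the same region of chromosome 10 as Elane, was at 0.185, 0.143 and 0.148 FPKM in control and listed at 0 in all extract libraries, at least 7.57-fold lower against the same floor. Prss57 did not pass the filter on low values with counts divided by 4 or in limma. Lcn2, an iron-scavenger binding protein that hepatocytes also make in the acute phase, was at 269, 307 and 401 FPKM in control and at 167, 170 and 159 FPKM in extract, and fell by 0.92 on the log2 scale (edgeR adjusted p = 0.00172). Control 3 was the highest control library for Lcn2 and the lowest for the 10 genes. Cybb and Cyba, which form the membrane core of the NADPH oxidase, fell by 0.42 and 0.61 on the log2 scale.

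Genes of granulocyte precursors and their regulators fell in 6 of 14 cases and rose in 0, with a median of -0.75. Without control 2, 3 fell, and without extract 1 or with DESeq2, 1 rose. Ms4a3, a marker of granulocyte and monocyte progenitors, was at 1.0, 0.592 and 0.364 FPKM in control and at 0, 0.0312 and 0 FPKM in extract, and it fell by 5.78 on the log2 scale (edgeR adjusted p = 0.00256). Control 3 was its lowest control library, as for the 10 genes. Irf8, a factor of the monocyte lineage, and Cebpd, a C/EBP factor that hepatocytes also express, fell by 0.88 and 0.77. Myb, which keeps progenitors immature, fell by 1.68 on levels of at most 0.272 FPKM, a call lost with limma and without control 2, control 3, extract 2 or extract 3. Of 14 cell division genes 3 rose, Tpx2, Cdk1 and Top2a, by 1.16, 0.70 and 0.64 on the log2 scale, and 0 fell. Over all genes tested 14.2% rose, so that count is near the background. No cell division gene was called without extract 2, 1 rose without control 1, control 3 or extract 3, and 1 fell without control 3.

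Mature neutrophils were represented by a list of 23 genes. Of these 21 were tested, 9 fell and 2 rose, with a median of -0.63. Over all genes tested 12.8% fell and 14.2% rose. Levels within the list differed widely. Wfdc21, given for its level, was at 169, 199 and 321 FPKM in control, far above the neutrophil marker Ly6g. How much RNA of each gene came from neutrophils was not tested, so the median is not a measure of these cells. The number that fell depended on single libraries, with 4 calls without control 2, extract 1 or extract 2 and 5 without extract 3 or with no filter on low counts. Fpr1, a receptor for bacterial formyl peptides, went from 4.87, 4.65 and 5.39 to 2.31, 2.84 and 2.42 FPKM and fell by 0.92 on the log2 scale (edgeR adjusted p = 0.00196). Hdc, which makes histamine, fell by 0.63 on the log2 scale. Il1b, an inflammatory cytokine, rose 2.13-fold, from 0.891, 1.17 and 0.973 to 2.28, 2.09 and 1.83 FPKM. Without control 1, control 3 or any 1 of the extract libraries, 1 gene of the list rose in place of 2.

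Some genes of that list were picked out after their values were seen, and they do not stand for the whole list. Csf3r, the receptor for the growth factor of granulocytes, was at 1.5, 1.9 and 1.88 FPKM in control and at 1.37, 1.09 and 0.922 FPKM in extract, and it fell by 0.58 on the log2 scale (edgeR adjusted p = 0.0386). Cxcr2, the chemokine receptor that draws neutrophils into tissue, was at 0.297, 0.213 and 0.325 FPKM and at 0.140, 0.137 and 0.217 FPKM (adjusted p = 0.178). Both were still measured in every extract library, Cxcr2 on only 28, 29 and 45 counts. For Cxcr2 the groups overlapped by a single extract value. Ly6g, the surface marker of mouse neutrophils, was at 0.447, 1.58 and 1.68 FPKM in control and at 0.246, 0.320 and 0.420 FPKM in extract, with control 1 the lowest control. Ly6g fell by 1.79 on the log2 scale (edgeR adjusted p = 0.0365). The largest fall among the tested genes of the list was that of Trem3, by 3.29 (edgeR adjusted p = 0.0222). Its counts were 36, 26 and 22 in control and 3, 0 and 5 in extract, so its size is uncertain.

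**Figure D4:**
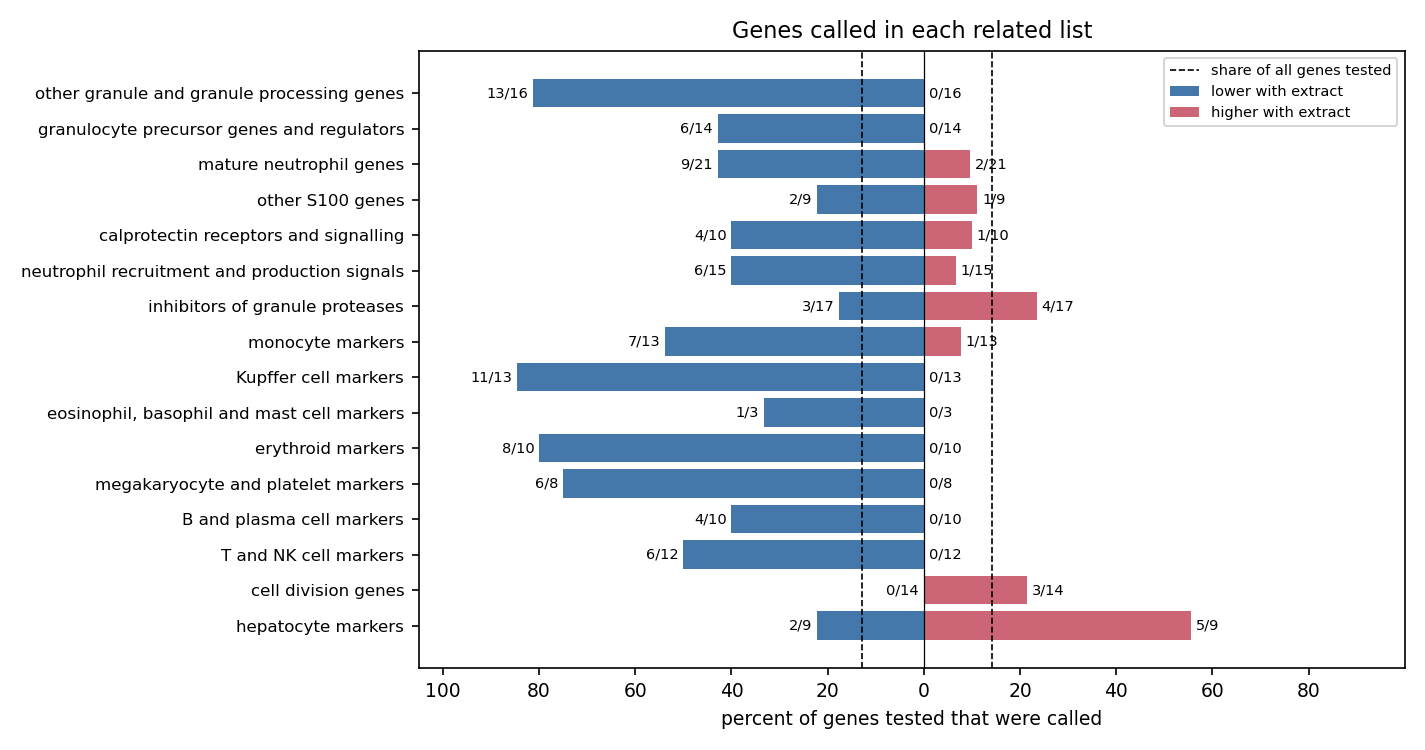
Percent of the tested genes of each related list that edgeR called lower (left) or higher (right) with the extract, with counts beside the bars and dashed lines at the shares over all genes tested (12.8% lower, 14.2% higher). Kupffer cell, other granule, erythroid and platelet lists have the largest shares of lower genes in this plot.

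Other members of the S100 family, calcium-binding proteins outside calprotectin, did not move as one. Of 9 tested, 2 fell and 1 rose, near the shares over all genes tested, 12.8% lower and 14.2% higher. S100a10, which partners annexin A2, was at 46.0, 48.4 and 38.2 FPKM in control and at 23.3, 20.7 and 23.0 FPKM in extract and fell by 0.92 on the log2 scale (edgeR adjusted p = 0.000289). S100a1 fell by 0.25 on the log2 scale, a call that was lost when any single library other than control 1 was left out. S100a4 rose 1.94-fold, and its call was lost with DESeq2, with no filter on low counts and without any single library other than extract 1.

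Among 10 genes of calprotectin receptors and their signalling, 4 fell and 1 rose. Myd88, the adaptor of Toll-like receptors, fell by 0.46, Bsg, also called basigin, by 0.20 and Cd33 by 0.82 on the log2 scale, Bsg not being called without extract 1, nor Cd33 with limma on log2(FPKM + 0.1). Ager, outside the naming rule and given because it is a receptor of calprotectin, was at 0.292, 0.540 and 0.281 FPKM in control and at 0.104, 0.0506 and 0.116 FPKM in extract, and fell by 1.96 (edgeR adjusted p = 0.0161). Cd36, a scavenger receptor, rose 1.36-fold. Without control 1, 2 genes of the list rose. Tlr4 itself, also outside the naming rule, was at 0.461, 0.470 and 0.628 FPKM in control and at 0.486, 0.299 and 0.322 FPKM in extract (edgeR adjusted p = 0.222). Its libraries overlapped between the groups.

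Of 24 genes for the recruitment and production of neutrophils, 15 were tested, 6 fell and 1 rose, with a median of -0.45. Vcam1, an adhesion molecule of activated endothelium, was at 7.15, 7.45 and 7.48 FPKM in control and at 2.46, 2.68 and 2.50 FPKM in extract. Cxcr4, the receptor that holds neutrophils and their precursors in the marrow, fell by 2.06 on the log2 scale (edgeR adjusted p = 0.00233), and its ligand Cxcl12 rose 1.32-fold (adjusted p = 0.000478). Whether these changes are linked, and in which cells they arose, was not tested. Itgal, an integrin chain of leukocytes, fell by 0.46. The granulocyte growth factor gene Csf3, given for its role, was listed at 0 in 4 of the 6 libraries and at 0.047 and 0.115 FPKM in control 2 and extract 2, and was not tested.

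Inhibitors of granule proteases, most of them made in hepatocytes, were called in both directions, 4 of 17 higher and 3 lower. For so short a list these counts are near the shares over all genes tested, 14.2% higher and 12.8% lower. Serpina3k and Serpina3m rose 1.72-fold and 1.57-fold and Pzp 1.16-fold (not called with limma), and Serpina3g fell by 0.79 on the log2 scale. The Serpina genes have near-identical copies that can share reads, and their values are uncertain. Without control 1, 8 of the list rose, and 1 fell without control 2, extract 2 or extract 3.

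Markers of other blood cells moved with the 10 genes, and their part in the result was not tested. Of 13 erythroid markers found, 10 were tested and 8 fell, or 5 without control 2, extract 1 or extract 2. Their summed level was 1274 to 1619 FPKM in control and 200 to 237 FPKM in extract, and Tspo2 was at 0 in extract. Of 8 megakaryocyte and platelet markers tested 6 fell, 3 without any 1 of controls 1 and 2 and extracts 1 and 2. Their summed level was 6.61 to 12.7 FPKM in control and 2.59 to 3.57 FPKM in extract, where Gp6 and Treml1 were at 0. Ppbp, a platelet chemokine, went from 4.75, 3.89 and 1.66 to 0.370, 0.231 and 0.667 FPKM, with control 3 again the lowest control.

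Of 13 monocyte markers 7 fell and 1, Fn1, rose. Their summed level was 196 to 204 FPKM in control and 214 to 216 FPKM in extract, most of it Fn1, which hepatocytes also make. The lower calls numbered 4 without control 1 or extract 2 and 3 without control 2 or extract 1. Of 13 Kupffer cell markers 11 fell, with a summed level of 508 to 534 FPKM in control and 306 to 321 FPKM in extract. No marker of either list was at 0 in a whole group.

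Eosinophils, basophils and mast cells are the other granulocytes. Of 15 markers found, 3 were tested and 1 fell, Prg2, the major basic protein of eosinophils. It was at 0.865, 0.478 and 0.371 FPKM in control and at 0 in all extract libraries, at least 7.90-fold lower against the same floor. With counts divided by 4, Prg2 did not pass the filter on low counts and 0 genes of the list fell, while 2 fell with DESeq2. The summed level of the list was 3.49 to 4.16 FPKM in control and 2.20 to 2.42 FPKM in extract. Fcer1a and Ms4a2 were at 0 in both groups, Tpsb2 in control, and Ear1, Ear6 and Epx, beside Prg2, in extract.

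Of 10 B and plasma cell markers tested 4 fell, 2 without control 1, control 2 or any 1 of the extract libraries, and Igll1, a gene of B cell precursors, was at 0.030 FPKM in control 1 and at 0 elsewhere. Their summed level was 9.11 to 13.9 FPKM in control and 5.50 to 6.66 FPKM in extract. Dntt, another gene of lymphoid precursors, was at 1.15, 1.44 and 0.712 FPKM in control and at 1.10, 1.22 and 1.21 FPKM in extract (edgeR adjusted p = 0.690; chosen after its values were seen). Of 12 T and NK cell markers 6 fell, 2 without control 2 and 3 without extract 1 or extract 2, with a summed level of 10.8 to 13.3 FPKM in control and 5.67 to 6.26 FPKM in extract and no marker at 0 in a whole group.

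The genes whose level followed Camp and S100a9 most closely were sought among 10809 genes of at least 1 FPKM, by Pearson's r of log2(FPKM + 0.1) over the 6 libraries. For Camp they were Slc43a2, an amino acid transporter, Atp6v0c, a proton pump subunit, Atf4, Map3k11 and Sart1, with r between 0.9976 and 0.9996. For S100a9 they were Col20a1, Ighg2c, an antibody heavy chain gene, Tbc1d17, Rasgrp2 and Aurkaip1, with r between 0.996 and 0.998. The 6 points fall in 2 groups, so any gene with a clear gap between them scores high. Slc43a2 went from 1.60 ± 0.0838 FPKM in control (SD, n = 3) to a mean of 0.984 FPKM in extract, a far smaller change than that of Camp.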

How the data were processed

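The deposited table gives 2 values per gene and library, per the file headers: estimated counts, which are whole numbers and were used as they stand, and FPKM as computed by the authors. Tools listed, without settings, per the submitters' processing notes, are HISAT2 2.0.4, cutadapt 1.9, edgeR and StringTie 1.3.4d. The sources used here do not give the genome build. All 10 members have the same coordinates in GENCODE M21 (GRCm38), as have 87.4% of the 30796 of 30889 identifiers found there, so coordinates are given on that build. Another 6 columns of per-sample values match no sample and were not used.

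edgeR 4.0.16 in R 4.3.3 compared extract with control over all 6 libraries: filterByExpr, TMM factors, quasi-likelihood test, two-sided, Benjamini-Hochberg adjustment over all 18071 genes, threshold 0.05. The SE of a log2 fold change is its size divided by the square root of F. The floor of 12 counts for genes at 0 was chosen after the low counts were seen. Ratios to S100a9 used log2(FPKM + 0.1). On simulated counts of 18071 genes for this comparison, with 200 changed, edgeR found 45% of the genes changed by 1 and 69% of those changed by 2 (log2), and 6 of its 120 calls were false. In the data a far larger share of genes, 26.9%, was called. The adjusted p depends on that share, so the simulated rates do not give the power of the real test. Alternatives were DESeq2 1.42.0, limma 3.58.1 on log2 FPKM with 3 pseudocounts, no filter on low counts, counts divided by 4, no TMM factors, the replicate number as a block, and each library left out.

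The members and lists were chosen with earlier results of these data known. Named genes were all members, up to 4 genes of smallest p from each list, and the 5 genes most like Camp and S100a9; exceptions are marked. For 1 gene of the mature neutrophil list, values are not reported here. Members of families with near-identical copies, overlapping genes and antisense genes can exchange reads.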

Additional observations from a re-analysis of the deposited data

How the results depend on the processing

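All 10 genes kept a log2 fold change below 0 under all 14 alternatives, and 8 of them, all but Prtn3 and Ctsg, were called in each. The number of the 10 called was 8 to 10. Prtn3 was called with DESeq2 (log2 fold change -0.21), counts divided by 4 (-0.22), limma on log2(FPKM + 0.5), + 0.1 and + 1 (-0.27, -0.27 and -0.26) and without TMM factors (-0.26), and ranged from -0.27 to -0.16 with 1 library left out. Ctsg was not called with DESeq2 (-4.14) or with no filter (-4.10), and ranged from -9.55 to -3.52 with 1 library left out, the first without extract 2, where both extract libraries left are at 0 and the fitted value is no measure of size. The number of genes called was 4870, and 3237 to 4706 with 1 library left out. Those lower numbered 2309, and 1442 to 2153 with 1 left out. The higher share of calls was 52.6%, 42.8% without TMM factors and 38.7% with limma on log2(FPKM + 0.5). The cause was not tested.

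The change relative to S100a9 moved with the pseudocount. With 0.5 FPKM it was -0.058 for Mpo, -0.15 for Elane, -1.02 for Camp and -1.19 for Ngp, and turned to 0.93 for Ctsg, 0.49 for Ltf and 1.02 for Fcnb. With 0.02 FPKM it was -2.32 for Mpo, -2.21 for Elane, -2.10 for Ctsg and -2.96 for Fcnb. On CPM it was -2.22 for Mpo and -1.44 for Fcnb. With no pseudocount, on group means, an alternative chosen after seeing the data, it was -2.58 for Mpo, -2.24 for Elane and -1.09 for Ltf. A larger pseudocount shrinks changes of genes near 0, by construction.

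Libraries with the same replicate number did not deviate together, with correlations of -0.15, -0.02 and -0.10 for numbers 1, 2 and 3. With the replicate block edgeR called 3746 genes and 9 of the 10, and no member's call changed. S100a1 and S100a4 were not called with it, and 1 inhibitor, 4 monocyte and 3 platelet genes fell. Counts in related lists also moved with other settings: 7 inhibitors rose with DESeq2 and 2 with limma, 1 fell with no filter, 2 B cell genes fell with no filter or limma, 3 platelet genes fell with counts divided by 4, 1 cell division gene rose with limma, and 5 erythroid genes fell with limma on log2(FPKM + 1). Pairing by number leaves a mean change relative to S100a9 as it is by construction, -2.29 for Camp.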

Other observations

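Some transcripts met while the lists were read split the libraries across the groups, and they were chosen after their values were seen. Stfa3, a stefin that inhibits cysteine proteases, was at 8.02 FPKM in control 1 and 8.11 FPKM in extract 3, and between 0 and 0.135 FPKM in the other 4 libraries. Asprv1, an aspartic protease of the epidermis that neutrophils also express, was at 3.72 and 3.59 FPKM in the same libraries and at 0.0336 to 0.212 FPKM in the others. Cfd, complement factor D, whose gene follows Elane on chromosome 10 and which fat cells make in quantity, was at 2.05 and 2.47 FPKM there and at most 0.347 FPKM elsewhere.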
